A study of Mus musculus with 4 samples.

Results

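The genes Ifit1, Ifit2, Ifit3, Ifit3b, Isg15, Usp18, Rsad2, Oasl2, Rtp4 and Ifi27l2a are induced by type I interferon, and their transcripts were followed through single-cell RNA libraries of mouse brain. The genes were taken by symbol, and all 10 were found among the 32285 genes of each library. The mice were aged 8 weeks (young) or 93 weeks (old). They were taken to be C57BL/6 animals, although the last digit of the strain entry varies between the samples. They had received an intracranial injection of 1000 CT2A-GFP-luc cells (tumour; CT2A is a mouse glioma line) or of PBS (sham). Cells came from the hemisphere opposite the injection, 2 weeks later. Each of the 4 combinations of age and injection had 1 library, and the number of mice behind a library is not given. Where 4 values stand in a row, the young pair comes before the old pair, and within each pair sham comes before tumour. No difference was therefore tested. Intervals are at the 95% level and cover only the error of counting, and differences between groups cannot be told apart from differences between libraries.

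Type I interferon is secreted when a cell senses foreign or misplaced nucleic acid. It binds the receptor formed by Ifnar1 and Ifnar2, which acts through the kinases Jak1 and Tyk2 and transcription factors that include Irf9. These factors bind the interferon-stimulated response element in the promoters of target genes. In the brain, endothelial cells, microglia and the cells that line the ventricles are among those known to respond. Ifit1, Ifit2, Ifit3 and Ifit3b encode RNA-binding proteins of the Ifit family, and Isg15 is a ubiquitin-like protein that is joined to other proteins. Usp18 removes Isg15 from its targets and dampens signalling at the receptor. Rsad2 encodes viperin, an antiviral enzyme, and Oasl2 belongs to the oligoadenylate synthetase family. Rtp4 belongs to the receptor transporter family, and Ifi27l2a encodes a small hydrophobic protein.

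In GENCODE release M21 (GRCm38), all 10 are protein-coding genes. The 4 Ifit genes lie within 99.3 kb on the plus strand of chromosome 19, from 34550694 to 34650009, in the order Ifit2, Ifit3, Ifit3b and Ifit1. The others are spread over 5 chromosomes: Isg15 on 4 (156199424 to 156200818), Oasl2 on 5 (114896936 to 114912234), Usp18 on 6 (121245906 to 121270917), Rsad2 and Ifi27l2a on 12 (26442746 to 26456452, and 103442167 to 103443680) and Rtp4 on 16 (23520291 to 23614222). RefSeq promoter windows of GRCm38.p6, from 250 bases before to 50 bases after a start site, were matched for 7 of the 10 genes. The windows were searched on both strands for the core of the response element, GAAA followed after any 2 bases by GAAA. At least 1 match was found in the windows of Ifit1, Ifit3, Ifit3b, Isg15 and Rsad2. Of all 32851 windows in the table, 3.44% held a match and 0.225% held 2 or more. Isg15 had 3 matches that overlap one another, Ifit1, Ifit3 and Ifit3b had 2 each, and Rsad2 had 1. No match was in the windows of Oasl2 and Ifit2 (2 windows for Ifit2). The 250 bases before the start site are shown for the 5 genes with a match, since these genes carry the shared element and because those of Ifit3 and Ifit3b are near copies. Each is written 5′ to 3′ on the strand of its gene, with the matches in capitals. The stretches are chr19:34640639-34640888 (plus strand) for Ifit1, chr19:34583279-34583528 (plus) for Ifit3, chr19:34607707-34607956 (plus) for Ifit3b, chr4:156200819-156201068 (minus) for Isg15 and chr12:26456453-26456702 (minus) for Rsad2.
Ifit1: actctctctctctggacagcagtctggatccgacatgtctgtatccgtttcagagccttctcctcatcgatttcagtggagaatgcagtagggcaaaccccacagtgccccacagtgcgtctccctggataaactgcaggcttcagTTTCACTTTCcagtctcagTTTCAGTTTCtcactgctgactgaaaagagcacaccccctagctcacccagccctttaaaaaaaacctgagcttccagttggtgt
Ifit3: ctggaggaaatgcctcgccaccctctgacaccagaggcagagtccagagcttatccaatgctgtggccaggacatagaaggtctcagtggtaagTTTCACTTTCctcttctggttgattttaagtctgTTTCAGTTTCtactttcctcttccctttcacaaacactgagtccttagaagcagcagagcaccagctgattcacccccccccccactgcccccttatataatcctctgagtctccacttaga
Ifit3b: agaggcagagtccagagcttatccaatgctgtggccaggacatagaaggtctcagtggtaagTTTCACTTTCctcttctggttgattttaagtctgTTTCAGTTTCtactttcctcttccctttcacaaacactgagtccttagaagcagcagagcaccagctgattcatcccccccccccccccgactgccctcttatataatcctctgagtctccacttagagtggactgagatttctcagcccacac
Isg15: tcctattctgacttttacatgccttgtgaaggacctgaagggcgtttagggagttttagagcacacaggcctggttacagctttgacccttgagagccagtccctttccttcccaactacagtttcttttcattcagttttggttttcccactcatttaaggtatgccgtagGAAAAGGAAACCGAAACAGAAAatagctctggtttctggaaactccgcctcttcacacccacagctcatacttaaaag
Rsad2: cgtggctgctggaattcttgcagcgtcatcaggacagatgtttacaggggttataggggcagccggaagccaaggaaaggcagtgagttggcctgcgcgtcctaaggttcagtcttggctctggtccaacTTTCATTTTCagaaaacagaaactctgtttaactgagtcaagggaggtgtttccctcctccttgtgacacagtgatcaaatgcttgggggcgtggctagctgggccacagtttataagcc
In a local alignment of the full windows of Ifit3 and Ifit3b, 258 of 260 aligned bases were identical (99.2%), and both hold their matches 34 bases apart. Gaps are left out of this count. The windows also differ in the length of a run of C, and Ifit3b lacks a short stretch of Ifit3 near the start site. A match describes the letters of the window and not binding.

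Cells were sorted into classes by 8 marker genes each, and 11 classes had at least 50 cells in each library. Of 40390 cells kept, 92.3% fell into a class. The libraries held 62726818 to 76652484 UMIs (unique molecular identifiers, counted transcripts), and the kept cells had a median of 3773 to 4858 UMIs. Pairs of libraries shared 27 to 53 cell barcodes. The young tumour library stood apart by 404 cells that expressed Hmga2 and other markers of 1 list, of which the others held at most 2, and by 305 T cells and 104 monocytes against at most 154 and 36 in the others. It also held 54 dendritic cells and 50 natural killer cells, against at most 2 and 6. Olfactory ensheathing cells numbered 46 in young tumour, 65 in old tumour and 0 in both sham libraries. Oligodendrocyte precursors numbered 317 in old sham and 22 to 92 in the others. The part of these differences in the results was not tested. Levels are given as CPM, the UMIs of a gene for every 1000000 UMIs of its class and library. A gene was called higher or lower when its CPM differed at least 2-fold with at least 20 UMIs in the 2 libraries together. Counts at the 3′ end are not scaled by gene length, so levels are compared within a gene and between genes only as shares of UMIs.

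Over all kept cells, the 10 genes together gave 251, 1019, 409 and 525 CPM. Of the cells, 26.8%, 42.0%, 37.6% and 42.1% held at least 1 UMI of the genes. Among the Ifit genes, Ifit1 was at 28.4, 105, 41.8 and 59.8 CPM and Ifit3 at 20.998, 71.4, 44.2 and 67.3 CPM. Ifit2 was at 11.0, 42.0, 22.1 and 15.1 CPM, and Ifit3b at 9.92, 19.8, 16.0 and 26.6. Every one of the 10 genes was lowest in young sham, and 9 were highest in young tumour. The exception was Ifit3b, which was highest in old tumour. Isg15 had the most UMIs in the young libraries (67.6 CPM in sham and 320 in tumour), and Ifi27l2a in the old ones (97.3 in sham and 120 in tumour). Sums over all cells do not separate a change within cells from a change in the mix of cells. In young tumour, the Hmga2-expressing cells alone held 35.1% of the UMIs of the 10 genes, whereas in young sham endothelial cells held 44.2%. Levels are therefore given by class.

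**Figure D1:**
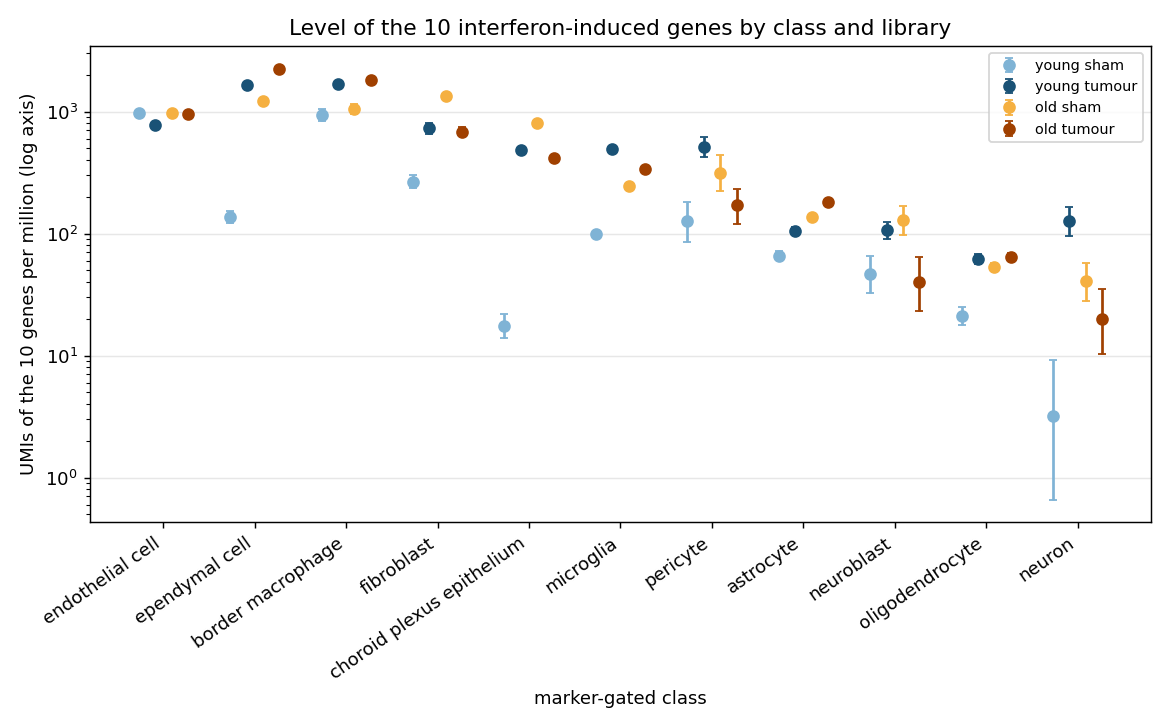
Summed level of the 10 genes in each of 11 marker-gated classes, in CPM on a log axis, with 1 point per library and bars for the exact Poisson 95% interval of the count. Endothelial cells were at 768 to 971 CPM in every library, while choroid plexus epithelium was at 17.6 CPM in young sham and at 418 to 798 CPM in the other libraries.

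Endothelial cells, which line the brain's vessels, held the genes at a high level in all 4 libraries. Their sum was 971, 768, 964 and 945.3 CPM. Isg15 gave 319, 256, 290 and 270 CPM, Ifit1 gave 146, 115, 136 and 141 CPM, and Rsad2 gave 109, 94.8, 126 and 135 CPM. All 10 genes had enough UMIs to be compared, and none was called higher in any comparison: young tumour against young sham (0.735% of all genes tested in the class were higher), old sham against young sham (2.99%), old tumour against old sham (1.06%) and old tumour against young tumour (2.64%). None was called lower. The lowest ratio of young tumour to young sham was that of Ifit3b, 0.567 (0.443 to 0.722), from 36.3 to 20.6 CPM. After each cell was thinned to 1000 UMIs, 52.8%, 44.3%, 47.9% and 44.7% of endothelial cells held a UMI of the genes, and without thinning 78.6%, 70.3%, 78.0% and 79.2%. In oligodendrocytes, a class with low levels of the genes, the thinned values were 2.22%, 4.30%, 4.38% and 4.30%, at median depths of 5095 to 6420 UMIs against 3308 to 4751 in endothelial cells.

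The choroid plexus epithelium, which secretes cerebrospinal fluid, had the widest range. The sum of the 10 genes was 17.6 CPM (13.9 to 21.8), 487 (462 to 512), 798 (776 to 821) and 418 (407 to 429). Young sham was thus far under the other 3 libraries, and old sham was the highest. The sum was 27.7 times as high in young tumour as in young sham (22.2 to 35.1) and 45.5 times as high in old sham as in young sham (36.5 to 57.3). Both ratios have the young sham library as denominator, with 81 UMIs in 518 cells.

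By gene, Ifi27l2a in the choroid plexus was at 7.58, 320, 376 and 196 CPM. Rtp4 was at 4.77, 43.9, 95.7 and 51.1 CPM and Usp18 at 0.867, 12.1, 39.99 and 19.6 CPM. These 3 genes, like the sum, were lowest in young sham and highest in old sham. Ifit1 had 1 UMI in young sham (0.217 CPM) and 29.6, 88.7 and 46.7 CPM in the others, a ratio of old sham to young sham of 409 (73.1 to 16192). Isg15 had 2 UMIs in young sham (0.433 CPM) and 55.7, 133 and 68.5 CPM in the others, with a ratio of 306 (84.4 to 2531) for the same comparison. Oasl2 had no UMI in young sham and 47 in old sham, which is at least 11.8-fold higher when 3 counts stand for the 0. Ifit2 was at 0.650, 1.59, 2.62 and 1.39 CPM and had too few UMIs in both comparisons with young sham, as had Ifit3b, Rsad2 and Oasl2 in young tumour. Of the genes with enough UMIs, 6 of 6 were higher in young tumour than in young sham (7.48% of all genes) and 9 of 9 in old sham than in young sham (5.04%). In young sham Rtp4 had 22 UMIs and Ifi27l2a 35, and the other genes had at most 6. Those others reached the UMI minimum only through the other library, so these counts are a description. None was higher in old tumour than in old sham (1.26%), where Usp18 at 0.491 (0.411 to 0.588) and Oasl2 at 0.392 (0.249 to 0.612) were lower; the call of Usp18 was lost without doublet removal and with median-of-ratios scaling. Ifit3b alone was higher in old than in young tumour (2.02%), at 4.38 times (1.81 to 13.8), with 5 UMIs in young tumour.

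The share of choroid plexus cells with a UMI of any of the genes was 1.19% (0.438 to 2.57), 26.3% (20.7 to 32.5), 45.03% (40.7 to 49.5) and 25.3% (22.5 to 28.4) after thinning to 1000 UMIs. Without thinning it was 12.2%, 61.7%, 80.5% and 63.8%, at median depths of 6912, 6046, 8910 and 12866 UMIs. The 5 cells with most UMIs of the genes held 30.1% of them in young tumour and 10.6% in old sham. Microglial markers summed to 52.9, 34.0, 23.4 and 14.1 CPM in the class, and monocyte markers to 226, 277, 253 and 205 CPM. T cell markers summed to 0.217, 3.50, 0.983 and 0.542 CPM, and those of dendritic cells to 1.73, 51.2, 1.31 and 0.851 CPM, with 6 of 8 dendritic markers detected in young tumour against 2 in each of the others. Both lists were highest in young tumour, and their part in the result was not tested. The choroid plexus markers themselves stayed between 276352 and 283525 CPM.

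**Figure D2:**
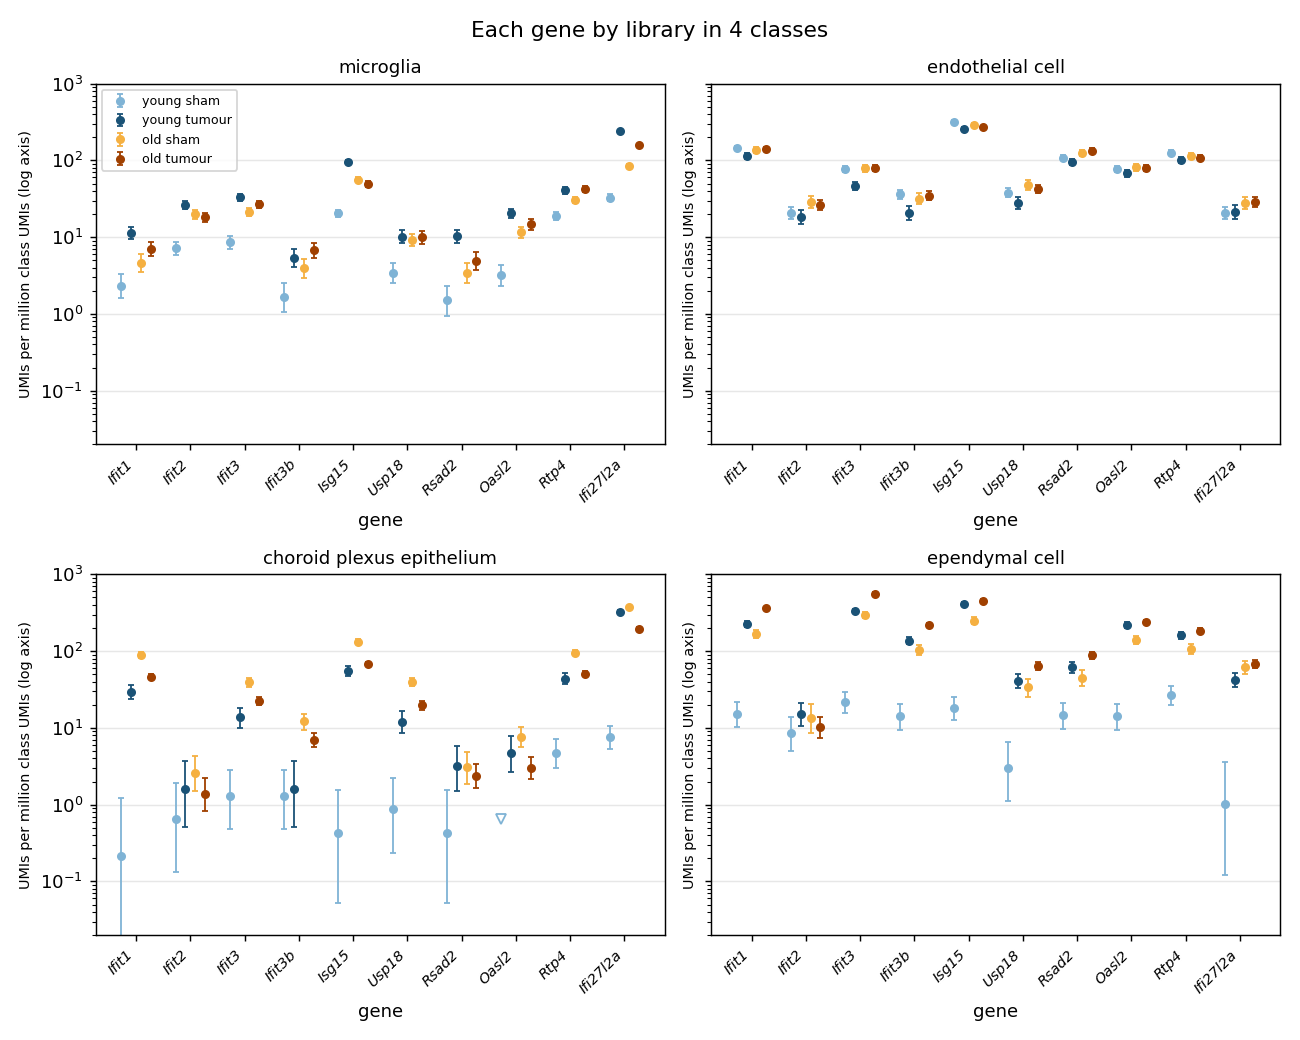
Level of each gene in 4 classes, in CPM on a log axis, by library, with exact Poisson 95% intervals; an open triangle marks a gene with no UMI and stands at the level of 3 counts. In endothelial cells the 4 libraries lie close together for each gene, whereas in choroid plexus epithelium and ependymal cells young sham lies under the other 3 libraries for most genes.

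Ependymal cells, the ciliated lining of the ventricles, had the highest levels of Ifit3 among the 11 classes in young tumour, old sham and old tumour. Ifit3 was at 21.6, 334, 292 and 559 CPM. Isg15 was at 18.1, 414, 249 and 453 CPM, and Ifit1 at 15.1, 226, 166 and 360 CPM. Oasl2 was at 14.1, 219, 140 and 238 CPM. For all 4 genes young sham was the lowest and old tumour the highest library. Ifit2 was the exception, at 8.55, 15.004, 13.5 and 10.3 CPM, and was called in no comparison.

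The sum of the 10 genes in ependymal cells was 137, 1652, 1213 and 2244 CPM. Against young sham it was 12.1 times as high in young tumour (10.7 to 13.7) and 8.86 times as high in old sham (7.80 to 10.1). Of 10 genes, 9 were higher in young tumour (2.86% of all genes tested) and 9 in old sham (2.93%). Usp18 with 6 UMIs in young sham and Ifi27l2a with 2 reached the UMI minimum through the other library, so the counts are a description. Between old tumour and old sham, Ifit1 at 2.17 times (1.91 to 2.49) and Ifit3b at 2.11 times (1.79 to 2.5) were higher, against 2.54% of all genes. Both calls were lost with a stricter marker gate and with the mean of each cell's CPM. In the 27 and 54 cells with under 3 markers of any other class, a setting chosen after the data were seen, the log2 ratios were -1.28 and -0.26. No gene was higher in old than in young tumour (2.03%). The classes held 118 to 224 ependymal cells a library, of which the 5 cells with most UMIs of the genes held 18.1% to 36.8%. The sum without these cells was 92.7, 1436, 986 and 2006 CPM. Markers of choroid plexus epithelium summed to 621, 789, 855 and 1676 CPM in ependymal cells and were highest in old tumour, as the genes were, and their part in the result was not tested.

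Ependymal cells with UMIs of several of the genes were common outside young sham. At 1000 UMIs per cell, 3 or more of the genes were seen in 0 of 113 cells in young sham, which allows a share of up to 3.21%. The share was 16.4% (10.9 to 23.3) in the young tumour, 13.5% (7.77 to 21.3) in the old sham and 24.4% (18.7 to 30.8) in the old tumour library. Without thinning, at medians of 9017 to 11193 UMIs, 20%, 67.3%, 55.9% and 66.1% of ependymal cells held 3 or more.

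**Figure D3:**
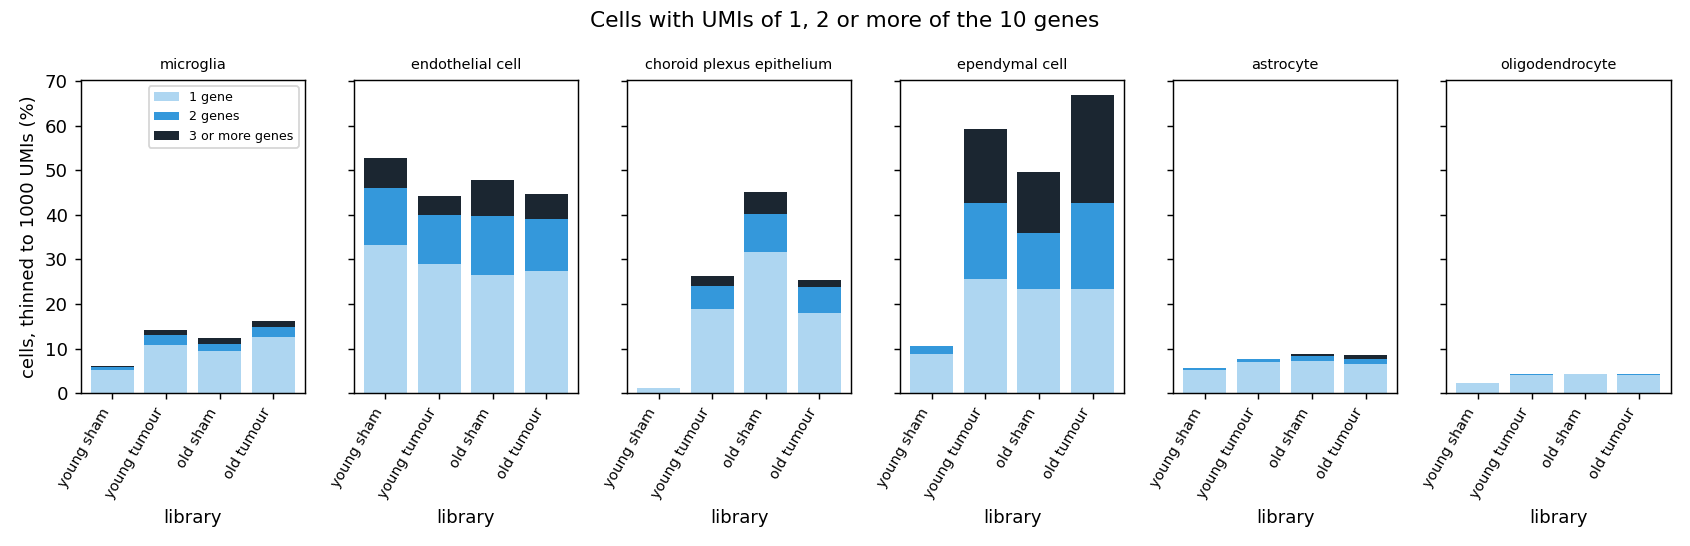
Share of cells, each thinned to 1000 UMIs, with UMIs of 1, 2 or 3 and more of the 10 genes, as stacked bars by library in 6 classes. In ependymal cells the bar reached 10.6% in young sham and 67.0% in old tumour, and in oligodendrocytes it stayed under 5% in every library.

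Microglia, the resident macrophages of the brain, held the genes at a lower level. The sum was 99.9 CPM (94.7 to 105), 494 (481 to 508), 245 (237 to 254) and 337 (327 to 348). Ifi27l2a was at 32.8, 241, 85.0 and 157 CPM, and Isg15 at 20.4, 96.4, 55.6 and 49.5 CPM. Young sham was lowest for each gene, and young tumour was highest for 8 of 10; Ifit3b and Rtp4 were highest in old tumour.

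In young microglia all 10 genes were higher with tumour than with sham (3.18% of all genes tested), from 2.16 times for Rtp4 (1.85 to 2.53) to 7.33 times for Ifi27l2a (6.63 to 8.12). Of these calls, 7 held under every alternative that gave a value. The exceptions were Rtp4, which lost its call under 5 alternatives, Usp18 and Ifit2. The sum was 4.95 times as high (4.66 to 5.25), and the median log2 ratio of the 10 genes was 2.10, against -0.01 over all genes tested in microglia. Between the sham libraries, 8 of 10 genes were higher in old than in young microglia (3.36%), with a ratio of 3.61 (2.56 to 5.17) for Oasl2 and 2.77 (2.18 to 3.53) for Ifit2. Of these 8 calls, 5 held under every alternative, and those of Ifit3b, Usp18 and Rsad2 were each lost under 1. Both of these comparisons rest on the young sham library. In old microglia, none of the 10 genes was higher with tumour than with sham (3.74%), and the sum had a ratio of 1.38 (1.31 to 1.44). No gene was higher in old than in young tumour (2.47%). Rsad2 was lower there, at 0.483 times (0.346 to 0.669), a call that 7 of its alternatives did not keep.

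The UMIs in microglia were unevenly spread over cells. The 1% of microglia with most UMIs of the genes held 39.7%, 36.1%, 27.8% and 27.8% of them. After thinning, 6.13%, 14.2%, 12.3% and 16.2% of microglia held any UMI of the genes, and 0.313%, 1.24%, 1.19% and 1.32% held 3 or more of the genes. Without thinning, any UMI was seen in 15.4%, 26.2%, 34.4% and 37.5% of microglia, at median depths of 3628, 3191, 4952 and 4697 UMIs. Old tumour, not young tumour, had the highest share of microglia with a UMI. The mean of each cell's CPM, which gives every cell the same weight, had a log2 difference of the sum between old and young tumour of 0.06, where the class totals gave -0.55. With the same mean, young tumour against young sham was at 1.60 in place of 2.31. Monocyte markers in microglia summed to 27.2, 67.7, 18.7 and 31.7 CPM, and markers of the Hmga2-expressing cells to 40.2, 93.0, 35.8 and 41.6 CPM, both highest in young tumour. T cell markers summed to 1.68, 9.29, 3.29 and 3.27 CPM. The part of these cells in the result was not tested. In microglia with at most 1 marker of any other class, a setting chosen after the data were seen, the log2 ratio of the sum between young tumour and young sham was 1.86. This setting left 2333 of 3673 cells in young sham and 1890 of 2944 in young tumour. It leaves few deep cells, so it also selects on depth and is no test of RNA from other cells.

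Border macrophages, which line vessels and meninges, were few, with 73, 134, 97 and 118 cells. Ifi27l2a was at 703, 718, 546 and 1153 CPM and held 55.3% of the UMIs of the 10 genes there. In young animals 9 of 10 genes were higher with tumour than with sham (6.05%), and Ifi27l2a was the exception, at a ratio of 1.02 (0.862 to 1.21). Rsad2 went from 2 to 75 UMIs, or from 6.93 to 124 CPM. Ifit1, Ifit2, Ifit3b and Usp18 likewise had 2 or 3 UMIs in young sham, and Oasl2 had 9. These genes reached the UMI minimum through young tumour, so the count of 9 is a description. The call of Ifit3 was lost with clusters in place of the gate and without the 5 cells with most UMIs of the genes, which held 35.03% of them in young tumour, and the call of Rtp4 was lost after thinning. In old sham 2 of 6 genes, Isg15 and Rsad2, were higher than in young sham (7.90%), and the call of Isg15 was lost with the stricter gate and with the mean of each cell's CPM.

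In astrocytes Ifit3 gave the most UMIs of the 10 genes in each library, followed by Ifit3b except in young tumour, where Ifi27l2a (16.3%) and Isg15 (15.1%) gave more than Ifit3b (11.7%). Ifit3 was at 17.9, 20.1, 36.5 and 47.1 CPM, and Ifit3b at 15.3, 12.3, 25.6 and 27.2 CPM. For these genes the old libraries were above the young ones, and the young tumour and young sham libraries lay close together. Of the 10 genes, 8 were higher in old sham than in young sham (1.83% of all genes tested), with a ratio of 5.01 (2.11 to 13.7) for Usp18 and 2.72 (1.73 to 4.34) for Ifit1. Usp18 had 7 UMIs in young sham, against 25 in old sham and 17 in young tumour. It reached the UMI minimum through the higher library, so the counts that include it are a description. In young astrocytes 4 of 10, Ifit1, Isg15, Usp18 and Ifi27l2a, were higher with tumour (2.26%), and the call of Ifit1 was lost under 5 alternatives. In old astrocytes only Ifit1 was, at 2.09 times (1.54 to 2.86), where 2.20% of all genes were, and this call was lost under 3 alternatives. Between the tumour libraries, Ifit3, Ifit3b, Rsad2 and Oasl2 were higher in old (2.81%), by 2.22 to 3.78 times, and Ifi27l2a was lower, at 0.451 times (0.322 to 0.627). The 4 higher calls between the tumour libraries were lost without doublet removal, and the call of Ifi27l2a without the 5 cells with most UMIs. Of the 8 calls between the sham libraries, 4 held under every alternative that gave a value.

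Oligodendrocytes, the myelin-forming cells, had a low sum of 21.2, 62.1, 53.4 and 64.6 CPM. Over the 4 libraries Ifit2 gave 45.1% of the UMIs of the 10 genes there, but in young tumour Ifi27l2a led with 43.5% against 24.9% for Ifit2. Ifit2 was at 14.4, 15.5, 30.7 and 26.8 CPM. The old libraries were above the young ones, at a ratio of 2.13 (1.71 to 2.68) between the sham libraries, which held under every alternative. The share of oligodendrocytes with an Ifit2 UMI was 10.0%, 8.49%, 14.3% and 14.7%, and after thinning 1.38%, 1.41%, 2.82% and 2.298%. Ifit1 had no UMI in the 947 oligodendrocytes of young sham. In young tumour 5 of 6 genes were higher than in young sham (1.25%), and in old sham 5 of 7 were (4.76%). Some of these reached the minimum only through the higher library, as Oasl2 with 1 and 20 UMIs in young sham and young tumour, so the counts are a description. Ifi27l2a was at 2.303, 27.0, 11.7 and 23.6 CPM, and the 5 cells with most UMIs of the genes held 29.5% of them in young tumour.

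Fibroblasts, pericytes, neurons and neuroblasts had 54 to 316 cells a library, and their sums rested on few of them. In fibroblasts the sum was 267, 730, 1337 and 685 CPM, and without the 5 cells with most UMIs it was 157, 403, 210 and 388. In these cells 6 of 7 genes were higher in young tumour than in young sham (4.07%) and 9 of 9 in old sham than in young sham (3.33%). Of these calls, 2 and 5 held under every alternative that gave a value. Rsad2, with 1 UMI in young sham and 61 in old sham, had a value in only 7 of 13 alternatives. Pairs such as this reached the UMI minimum through the higher library, so the counts are a description. Without the 5 cells, the log2 ratios of Ifit1 and Oasl2 between old and young sham were -0.04 and -0.13. In old sham 5 fibroblasts held 86.8% of the UMIs. In pericytes 5 cells held 55.6% to 85.0% of the UMIs of the genes, and in neurons 73.5% to 100%. Neurons of young sham had 3 UMIs of the genes in 100 cells.

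**Figure D4:**
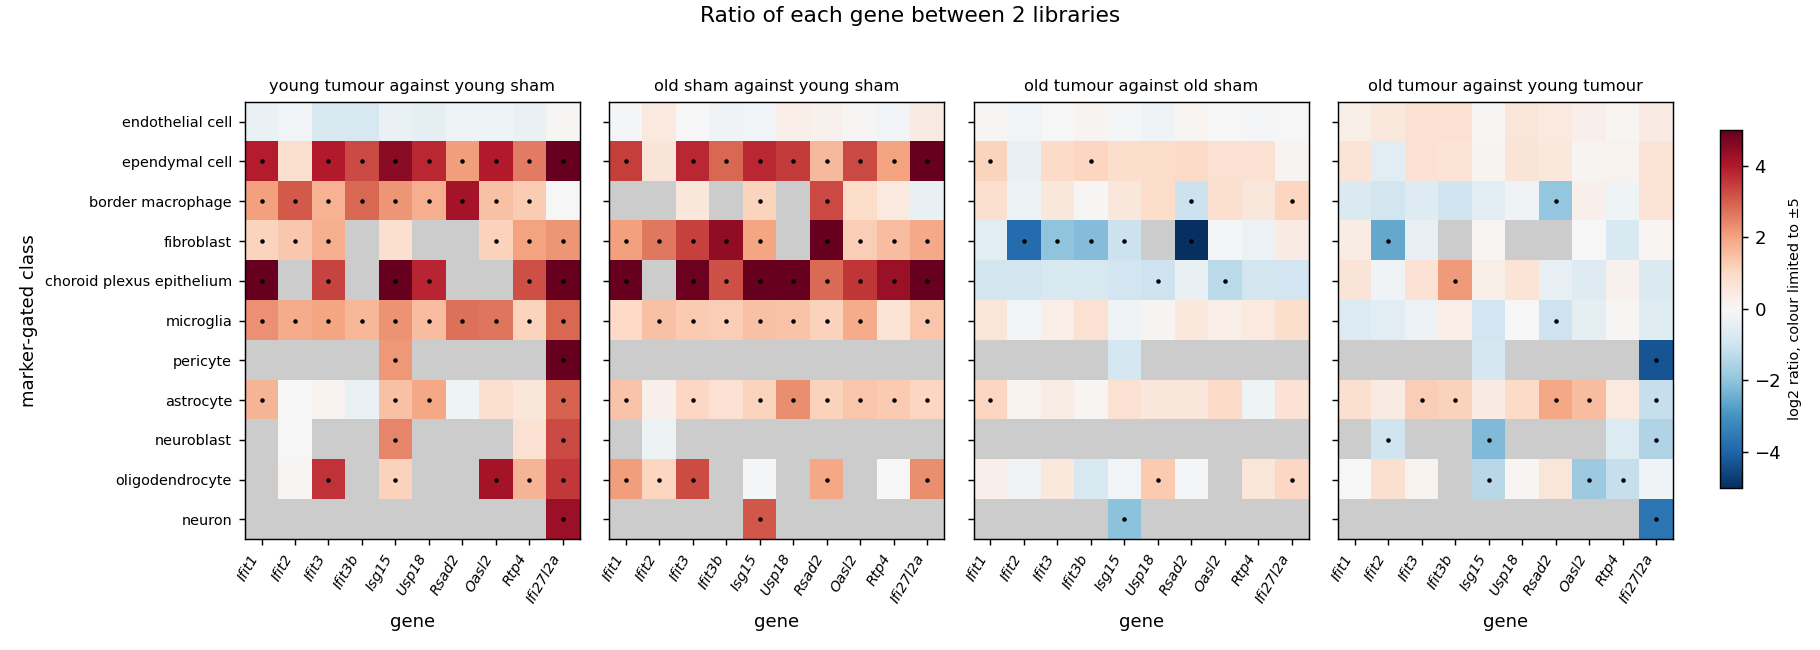
Log2 ratio of each gene in each class for 4 pairs of libraries, with dots on ratios of at least 2-fold in either direction and grey where the 2 libraries together had under 20 UMIs. Of 110 tiles, 54 in the first panel and 51 in the second carry a dot for a higher level, both with young sham as denominator; endothelial cells have none in any panel.

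Over the 11 classes, a gene in a class could give 110 pairs. Of those with enough UMIs, 54 of 76 were higher in young tumour than in young sham, where 3.21% of all pairs of a gene and a class were higher. Between old and young sham 51 of 73 were higher (3.75%). Between old tumour and old sham 6 of 80 were higher (2.54% of all pairs) and 9 lower (2.32%), and between old and young tumour 5 of 83 were higher (2.95%) and 12 lower (3.52%). Of the 6, the 1 that held under every alternative that gave a value was Usp18 in oligodendrocytes. It had 9 UMIs in old sham and 18 in old tumour, a ratio of 2.48 (1.06 to 6.27), and a value in 10 of 13 alternatives. Among the pairs higher than in young sham, 21 of the 54 and 17 of the 51 had under 10 UMIs in young sham and reached the minimum through the other library, so the counts are a description. The median mitochondrial share of a cell was lower in old sham than in young sham in 11 of 11 classes, with 4.49% against 7.62% in astrocytes, and its part in the comparison was not tested. Counts over classes are not counts of independent results, since 1 library enters all classes of a comparison, and the comparisons share libraries.

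The difference between tumour and sham in old animals could be set beside that in young animals only as 2 ratios. In microglia the ratio of the sum was 4.95 in young and 1.38 in old, in choroid plexus epithelium 27.7 and 0.524, in ependymal cells 12.1 and 1.85, and in oligodendrocytes 2.94 and 1.21. In border macrophages it was 1.79 and 1.73, and in endothelial cells 0.791 and 0.980. The difference between the ages was not tested. The young ratios have the low sums of young sham as denominator, and the old ratios the higher sums of old sham. In border macrophages and endothelial cells the sham sums lay closer together. The tumour sums differed too, at 494 CPM in young and 337 in old microglia, but 1652 and 2244 in ependymal cells. An effect of age in tumour-free brains and an offset of 1 sham library cannot be told apart.

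In the young tumour library, further classes held the genes at high levels. Monocytes were at 4988 CPM (104 cells), with 1745 from Ifi27l2a and 1669 from Isg15, and 81.7% of them had an Isg15 UMI. T cells were at 2650 CPM (305 cells), of which Ifi27l2a gave 2097. The Hmga2-expressing cells were at 1884 CPM, led by Isg15 at 813 and Ifit1 at 299 CPM, and 99.5% of the 404 cells had a UMI of the genes. In the other libraries monocytes were at 1184 to 1406 CPM in 24 to 36 cells, and T cells at 763 to 1446 CPM in 39 to 154 cells. The makeup of the genes thus differed between these classes, with Ifi27l2a leading in T cells and Isg15 in the Hmga2-expressing cells.

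With the 4 libraries summed, the makeup also differed among the classes present in all of them. Ifi27l2a gave 49.4% of the UMIs of the 10 genes in choroid plexus epithelium and 43.3% in microglia, but 2.70% in endothelial cells and 3.12% in ependymal cells. Isg15 gave 31.0% in endothelial cells and 3.91% in oligodendrocytes. Ifit2 gave 0.354% in choroid plexus epithelium and 0.767% in ependymal cells, sums in which young sham weighs little; in young sham alone it gave 3.70% and 6.25%. Ifit3 and Ifit3b are neighbours with near-identical promoter stretches, and 14.9% of the 50-base stretches in the last 500 bases of the Ifit3 transcript are also in Ifit3b, so some reads of the pair could not be told apart. Of the UMIs given to either gene, Ifit3b took 16.5% in microglia (14.5 to 18.6) and 40.0% in astrocytes (37.5 to 42.5). Its share was 28.4% in ependymal cells (27.1 to 29.6) and 30.6% in endothelial cells (28.7 to 32.5). In astrocytes it was 36.7% to 46.1% over the 4 libraries, and in microglia 13.9% to 19.95%, so the ranges of these 2 classes did not overlap.

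**Figure D5:**
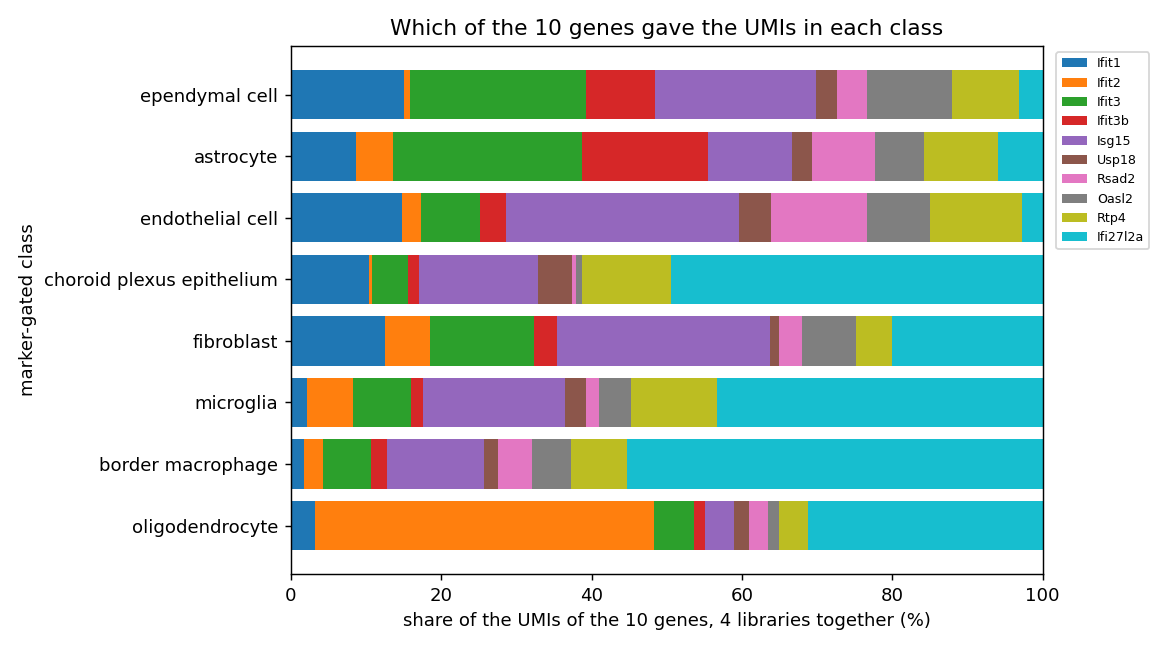
Share of each gene in the UMIs of the 10 genes, in percent, for 8 classes with the 4 libraries summed. Ifi27l2a fills 43.3% to 55.3% of the bar in microglia, choroid plexus epithelium and border macrophages, Ifit2 fills 45.1% in oligodendrocytes, and both are small in ependymal and endothelial cells.

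As a description over the 44 sums of 11 classes in 4 libraries, the level of each gene was set against the mean of the other 9 on the scale of log2(CPM + 10). Pearson's r was 0.79 to 0.94 for 8 genes, 0.48 for Ifi27l2a and 0.36 for Ifit2. The sums of 1 library share its depth and preparation. Among 14254 other genes, whose median r with the mean of the 10 was -0.04, those most alike included Irf7 (0.890), Irf9 (0.874), Irgm1 (0.867), Ifitm3 (0.862), Gbp3 (0.858), Iigp1 (0.844), Irgm2 (0.839), Gbp2 (0.833) and Eif2ak2 (0.832). Irf7, a factor that drives interferon genes, was at 1.73, 21.001, 32.9 and 20.4 CPM in choroid plexus epithelium and at 74.3, 69.8, 94.3 and 84.9 CPM in endothelial cells.

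The type I interferon ligands were at the limit of detection. Of 12 interferon genes measured, Ifnb1 had 3, 1, 9 and 16 UMIs over all kept cells, and the type I genes Ifna2, Ifna4, Ifna5, Ifna11, Ifnab and Ifne had none in any library. Ifng, the type II interferon, had 17, 482, 75 and 97 UMIs, and T cells held 429 of the 482 in young tumour. In microglia the receptor genes differed by less than the fold used for a call: Ifnar1 was at 50.1, 51.3, 49.5 and 51.6 CPM and Ifnar2 at 325, 318, 252 and 310 CPM. Both receptor genes were highest in endothelial cells among the 4 classes with most UMIs of the 10 genes, with Ifnar1 at 197 to 235 and Ifnar2 at 318 to 378 CPM. In choroid plexus epithelium Ifnar1 was at 4.49 to 7.32 CPM and Ifnar2 at 113 to 138 CPM. Of 13 receptor and signalling genes, 5 of 12 with enough UMIs were higher in young tumour than in young sham in choroid plexus epithelium (7.48% of all genes tested), 5 of 13 in ependymal cells (2.86%), 2 of 13 in microglia (3.18%) and 0 of 13 in endothelial cells (0.735%). Jak1, the receptor's kinase, was not among them, at 89.5, 74.6, 89.6 and 76.9 CPM in ependymal cells. Irf7 in choroid plexus epithelium, with 8 UMIs in young sham and 66 in young tumour, reached the UMI minimum through young tumour. So did some other genes of the list, and its counts are a description.

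Other genes known to be induced by type I interferon were counted from a list of 44 names, of which 42 were matched. In choroid plexus epithelium 20 of 23 with enough UMIs were higher in old sham than in young sham (5.04% of all genes tested), and 10 of 19 in young tumour than in young sham (7.48%). In ependymal cells these counts were 15 of 23 (2.93%) and 19 of 24 (2.86%), and in microglia 10 of 36 (3.36%) and 17 of 41 (3.18%). In endothelial cells they were 2 of 34 (2.99%) and 1 of 35 (0.735%), near the share over all genes. In the other classes some genes had few UMIs in young sham and reached the UMI minimum through the other library. The counts of this list are therefore a description. Bst2, which tethers budding viruses, was at 156, 724, 863 and 629 CPM in choroid plexus epithelium and at 33.2, 525, 345 and 526 CPM in ependymal cells. Ifitm3, which blocks viral entry, was at 698, 3155, 1782 and 2193 CPM in ependymal cells and at 42.4, 270, 92.9 and 151 CPM in microglia. In endothelial cells Ifitm3 was at 1229 to 1402 CPM, with the 4 libraries within 1.5-fold of one another.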

How the data were processed

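Cells from the hemisphere opposite the injection were profiled by droplet-based 3′ single-cell RNA sequencing in 4 libraries. The authors deposited raw UMI counts for every gene in every barcode, with no normalization. The submitters' processing notes list mm10, Cell Ranger 3.0.2 and Seurat 2.3.4, whereas per the file headers the matrices were written by Cell Ranger 6.1.0; the annotation release is not given in the sources used here. Groups follow the labels for age and injection. A strain entry whose last digit varies from sample to sample was not used.

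Barcodes were kept from 500 UMIs and 200 genes upwards, with up to 20% of UMIs mitochondrial. Scrublet (scanpy 1.11.5) scores were used to remove the highest-scoring cells at 0.8% per 1000 barcodes. A cell took the class of which it had most of 8 markers detected, if these were at least 3 and at least 2 more than for the next class. This gate was set after the matrices were seen. UMIs were summed per class and library. Ratios carry exact conditional Poisson intervals, CPM exact Poisson intervals and shares exact Clopper-Pearson intervals (95%). Thinning drew 1000 UMIs per cell and left out shallower cells. The ratios, their intervals and the calls were tested on Poisson counts simulated from microglia means. Such counts hold no uneven spread over cells and no difference between libraries.

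The genes and lists were chosen with earlier results of these data known. The 10 genes are all named; beyond them, the 10 genes with the highest correlation and up to 4 genes of each list per class with most UMIs could be named, and Ifnar1 and the T cell, monocyte and Hmga2-expressing classes were chosen after their values were seen. A gene that the rule names is not reported here. Classes were rebuilt from markers, so they may differ from the study's own. Alternatives were other cell filters, no doublet removal, Leiden clusters in place of gates, a stricter gate (4 markers, lead of 3), median-of-ratios scaling, averaging CPM over cells, thinning, UMI minimums of 1 and 100, a 1.5-fold call, leaving out 5 cells, and, added later, cells with few markers of another class. An alternative gave no value for a pair that fell under the UMI minimum in it. The UMI minimums and the 1.5-fold call leave the ratios themselves unchanged. Matches between 32158 of 32285 gene identifiers (99.6%) and GENCODE M21 gave the positions.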

Additional observations from a re-analysis of the deposited data

Results flagged for a closer look

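Some results went one way with tumour in young animals and the other way in old ones, each at least 2-fold. They are given as the log2 of the tumour to sham ratio in old over that in young. The value was -4.83 for Usp18 in choroid plexus epithelium, where young sham had 4 UMIs. It was -5.23 for Rsad2 in border macrophages, where young sham had 2 UMIs. In fibroblasts it was -5.20 for Ifit2 and -3.83 for Ifit3, and 5 cells held 86.8% of the UMIs of the 10 genes in old sham. For the sum of the 10 genes it was -2.89 in neuroblasts and -6.35 in neurons, with 3 UMIs in the neurons of young sham. The old tumour to sham direction turned without the 5 cells with most UMIs for Rsad2 in border macrophages (log2 ratio 0.28) and Ifit3 in fibroblasts (2.07), with clusters in place of gates for neuroblasts (0.035) and with a stricter gate for neurons (0.46). With 1 library per group, none of these differences was tested.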

How the results depend on the processing

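Of 54 young tumour, 51 old sham, 6 old tumour (against old sham) and 5 old tumour (against young tumour) calls of higher level, these counts moved most. Thinning gave 17 and 19 for the comparisons with young sham, and a minimum of 100 UMIs gave 27 and 31, since fewer pairs could be called. For old tumour against old sham the count was 10 without doublet removal, 22 at 1.5-fold and 14 without the 5 cells with most UMIs. For old against young tumour it was 1 without doublet removal, 8 with Leiden clusters, 10 with the stricter gate, 8 with the mean of cell CPM and 21 at 1.5-fold. The last settings were chosen after seeing the data. Cells with at most 1 marker of another class gave 15, 19 and 8 (young tumour, old sham, old against young tumour). These left few deep cells, with 6 ependymal cells in young sham, so cells with under 3 such markers were added, which gave 30 and 9 (young tumour, old against young tumour). Where no value shows it, the cause was not tested. Some called log2 ratios turned sign. In fibroblasts, Isg15 (old tumour against old sham) was at 1.53 with the stricter gate, 0.54 without 5 cells and 0.0091 with under 3 other markers, and Ifit3 at 2.07 and 1.77 with the last settings named. Ifit2, Ifit1 and Oasl2 (old against young sham) were at -0.10 with the mean of cell CPM and at -0.041 and -0.13 without 5 cells. In border macrophages, Rsad2 (old tumour against old sham) was at 0.28 without 5 cells and Ifi27l2a at -0.072 with at most 1 other marker. In ependymal cells Ifit1 and Ifit3b (old tumour against old sham) were at -1.28 and -0.26 with under 3 other markers. The sum in neuroblasts was at 0.035 with clusters and that in neurons at 0.46 with the stricter gate. Of 3591 values of single genes, 3159 were counted as staying within the counting interval. These include the values at UMI minimums of 1 and 100 and at 1.5-fold, which leave every ratio unchanged and so stay by construction. No paired analysis was possible because each group has 1 library. Clusters and gates gave the same class to 98.6% of the cells that had a class in both. Clusters were named by the markers of the gate, so part of this agreement is built in. Counting cells in no class, the share of a named cluster gated to its class ran from 31.8% (monocytes) to 99.7% (astrocytes). Between libraries, counting intervals say nothing of the variation between animals, which 1 library per group cannot show.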
